A study of Bos taurus with 90 samples.

Results

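The comparison described here set mural granulosa cells (MGCs), the cells that line the wall of the antral follicle, from healthy medium follicles of the cow against MGCs from the other medium follicles. The series held RNA-seq counts for 90 libraries, with MGCs, a pool of cumulus cells (CCs, the granulosa cells around the oocyte) and 1 oocyte from each of 30 Bos taurus follicles, and 8 of those 90 libraries entered the comparison. The healthy group was 3 MGC libraries, from follicles M5, M6 and M8, and the other group was 5, from M1, M2, M3, M4 and M7. The follicles came from slaughterhouse ovaries. The sources used here state no genotype and no treatment for either group, and they do not give the age of the cows. Diameters were 6.7 mm for M5 and 7.0 mm for M6 and M8, against 6.2 mm for M1 and M2, 6.4 mm for M3 and M4 and 7.0 mm for M7.

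The class was taken from the study and is not part of the sample labels. All follicles had passed a check of their appearance, and the study then called a follicle healthy from its MGCs, by measures that included a high transcript level of the receptor for follicle-stimulating hormone (FSHR), a low level of the death receptor FAS and a low score for apoptosis genes. The class therefore rests on expression in the same MGC libraries that are compared here, and p-values from these libraries describe how far the 2 groups lay apart and are not independent evidence for the class. The CCs and oocytes of the same follicles were not used to set it. Nor were the 2 medium follicles that the study removed on mapping rate and mitochondrial share, called R1 (7.0 mm) and R2 (7.1 mm) here. For R1 the study names the oocyte as the library with the high mitochondrial share. Its MGC and CC libraries were removed with it to keep the matched design. R1 and R2 were left out of every fit.

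Granulosa cells grow under follicle-stimulating hormone and convert androgen to oestradiol with aromatase. In each wave of follicles in the cow most members stop growing and undergo atresia, a regression that begins with the death of mural granulosa cells, while a dominant follicle keeps its response to gonadotrophin. FAS is a known mediator of cell death in such tissue, and CCs stay in contact with the oocyte and are known to differ from mural cells in hormone response and matrix production.

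The counts are listed by Ensembl gene identifier, and no table used here pairs these identifiers with symbols. Genes are therefore described by their levels, by the libraries in which they were high or low and by their levels in the other cell types. FSHR, FAS, the steroid enzymes and the cell type markers could not be looked up, so neither the class nor the cell type label was checked against named genes, and lists of known pathways were not counted.

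The 8 libraries held 31855644 to 39266980 counts each. Total counts averaged 37416300 ± 1902310 (SD, n = 3) in healthy and 33889800 ± 2179970 (n = 5) in other follicles, and diameter averaged 6.9 ± 0.173 mm and 6.44 ± 0.329 mm. In exact two-sided permutation tests over the 56 arrangements, the unadjusted p was 0.0714 for total counts, 0.107 for diameter and 0.214 for the number of genes with a count (16917 ± 173 against 17255 ± 364), and the values adjusted over these 3 tests were 0.161, 0.161 and 0.214. The first 3 digits of the follicle identifiers, whose meaning the sources used here do not state, were the same for M5 and M8, and each of the remaining 6 follicles had its own. These digits and the class cannot be told apart within the 8 libraries. Of the removed follicles, which carry no class here, R2 shares its first digits with M6 and R1 with M7.

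MGCs of healthy and other follicles differed at many genes, with more genes lower than higher in healthy follicles. Of 14751 genes tested, 1084 were higher in healthy follicles (7.35%) and 1541 were lower (10.4%), at a fold change above 2 and an adjusted p under 0.05 in edgeR's quasi-likelihood test. In all, 2625 (17.8%) were called, and 3489 (23.7%) passed the same fold change at an unadjusted p under 0.05. Levels are given as CPM, the count of a gene scaled to an equal library total, and fold changes on the log2 scale as healthy minus other. The genes called higher had a median log2 fold change of 1.51 (quartiles 1.21 and 2.03), and those called lower a median of -1.80 (quartiles -2.52 and -1.39). The median over all genes tested was -0.05. The normalization (TMM) scales the libraries so that this centre lies near 0, so the median is not a result of its own. Because the libraries are bulk samples, fewer cells of a type and less RNA per cell cannot be told apart in these values. Some of the follicles may come from 1 cow, and which ones is not stated, so n counts follicles and not animals.

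**Figure D1:**
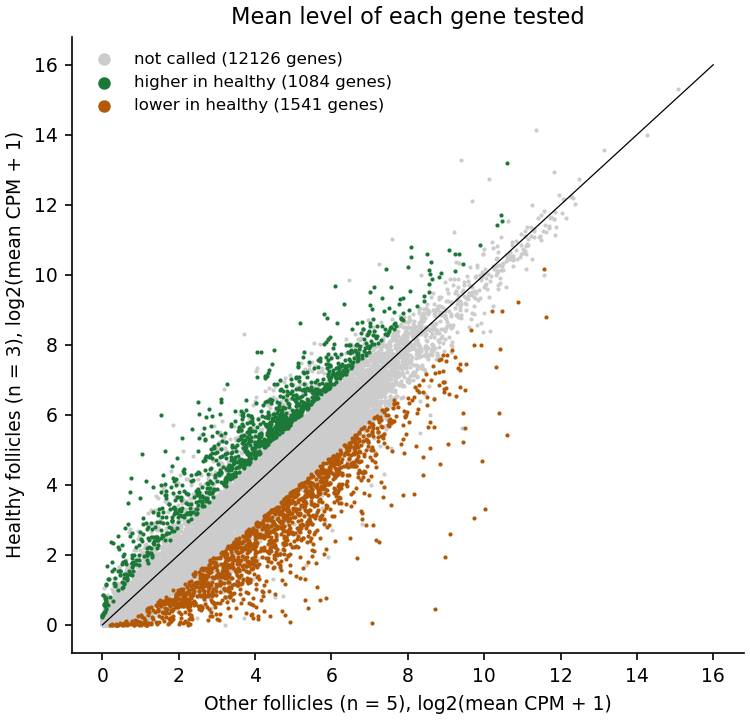
Mean level of each of the 14751 genes tested, as log2(mean CPM + 1), in the 5 other follicles (horizontal axis) and the 3 healthy follicles (vertical axis), with the line of equal levels. The 1084 genes called higher lie above the line and the 1541 called lower lie below it, and the genes farthest from the line lie below.

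The decreases reached further than the increases. Among the genes called lower, 649 (42.1%) changed more than 4-fold and 118 more than 16-fold, whereas among the genes called higher 288 (26.6%) changed more than 4-fold and 20 more than 16-fold. Over all genes tested, 1682 (11.4%) passed 4-fold in either direction. The lowest fitted log2 fold change was -11.5 and the highest 6.58. Called genes were found at all levels. A mean CPM above 10 over the 8 libraries was seen for 803 (74.1%) of the genes called higher and 927 (60.2%) of those called lower, against 8875 (60.2%) of all genes tested. A mean above 100 was seen for 183 and 137, against 1706 of all genes tested, and a mean above 1000 for 5 and 4, against 127.

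Complete separation of the groups was common. At 4374 of the 14751 genes (29.7%) the ranges of the 3 healthy and the 5 other libraries did not overlap, with the healthy follicles below the others at 2931 (19.9%) and above them at 1443 (9.78%). The ranges were separate for 902 of the 1084 genes called higher and for 1313 of the 1541 called lower. A switch across a level of 1 CPM was less frequent. At 85 genes called lower every healthy library was under 1 CPM and every other library above it, and at 30 genes called higher every other library was under 1 CPM and every healthy library above it. Over all 14751 genes tested, called or not, the first pattern was seen at 104 genes and the second at 35.

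The called genes made up a visible share of each library. Genes called higher took 10.4% of all counts in M5, 14.7% in M6 and 13.8% in M8. They took 6.85% in M1 and 4.19% to 4.56% in M2, M3, M4 and M7. Genes called lower took 2.83%, 1.93% and 2.65% of the counts in M5, M6 and M8, 5.54% in M1 and 10.3% to 12.2% in the remaining 4. On both scales M1 lay between the healthy follicles and the rest of its own group. These shares describe the genes that the fit selected and are not a test of them.

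Among called genes with separate ranges whose mean log2 CPM reached 3, the largest increase was that of ENSBTAG00000051956. Its level in MGCs was 18.8 CPM in M5, 30.4 in M6 and 36.6 in M8. In the other follicles it was 0.984 in M1, 0.833 in M2, 0.148 in M3, 0.498 in M4 and 2.79 in M7. All healthy libraries thus lay above all others, and M1 lay within the range of its group at this gene. The log2 fold change was 4.92 (SE 0.74, adjusted p = 0.00471 in edgeR). This gene was far more abundant in CCs, where it reached 564 to 1341 CPM in the 3 healthy and 144 to 805 CPM in the 5 other follicles. The CC ranges overlapped, and the CC log2 fold change was 1.15 (adjusted p = 0.299 in edgeR). In the MGCs of the 2 removed follicles it stood at 4.65 CPM (R1) and 1.11 CPM (R2). Across the 9 small follicles kept by the study it ran from 0.258 to 31.8 CPM (median 10.98) in MGCs, and across the 10 large follicles from 0.203 to 14.1 CPM (median 1.43).

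The next largest increase under the same rule was that of ENSBTAG00000010384, at 25.1 CPM in M5, 35.3 in M6 and 31.1 in M8. The other follicles had 6.37 CPM in M1, 0.752 in M2, 0.890 in M3, 0.530 in M4 and 2.07 in M7. Here M1 was the highest of its group but lay below every healthy library. The log2 fold change was 3.99 (SE 0.76, adjusted p = 0.00907 in edgeR), and with diameter as a covariate it was 4.29 with an adjusted p of 0.0660. Oocytes carried this gene at higher levels than MGCs, between 174 and 243 CPM in all 8 follicles, and the healthy range there lay inside the range of the others. In CCs it was 21.3 to 36.0 CPM in healthy and 5.96 to 22.2 CPM in other follicles (log2 fold change 0.94, adjusted p = 0.344 in edgeR).

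Under the same rule, the largest decrease was that of ENSBTAG00000004104. Only 10, 7 and 24 counts fell on it in M5, M6 and M8, which is 0.282, 0.187 and 0.611 CPM. M2, M3, M4 and M7 had 279, 368, 514 and 912 CPM, whereas M1 had 1.65 CPM from 57 counts. Within the other group this gene therefore split M1 from the remaining 4 by 2 orders of magnitude. The log2 fold change was -9.96 (SE 1.85, adjusted p = 0.00821 in edgeR). The removed follicles stood at 451 CPM (R1) and 54.9 CPM (R2). Both extremes were also found at the other sizes, from 1.05 to 542 CPM in MGCs of small follicles (median 2.68) and from 0.213 to 905 CPM in large follicles (median 9.19). In the CCs of the 8 medium follicles the level did not exceed 5.81 CPM.

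ENSBTAG00000012623, the next largest decrease under that rule, had no count in M5 and M8 and 6 counts in M6. M1 had 8 counts (0.232 CPM), and M2, M3, M4 and M7 had 17.5, 13.9, 67.1 and 47.5 CPM. M1 again sat beside the healthy follicles. The log2 fold change was -8.83 (SE 1.91, adjusted p = 0.0131 in edgeR), a size that depends on the prior count because 2 of the healthy libraries were at 0. Without M6 the adjusted p was 0.0579 and without M8 it was 0.0555. Removed follicle R1 had 47.4 CPM and R2 had 4.38 CPM, and no oocyte of any size had a count.

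**Figure D2:**
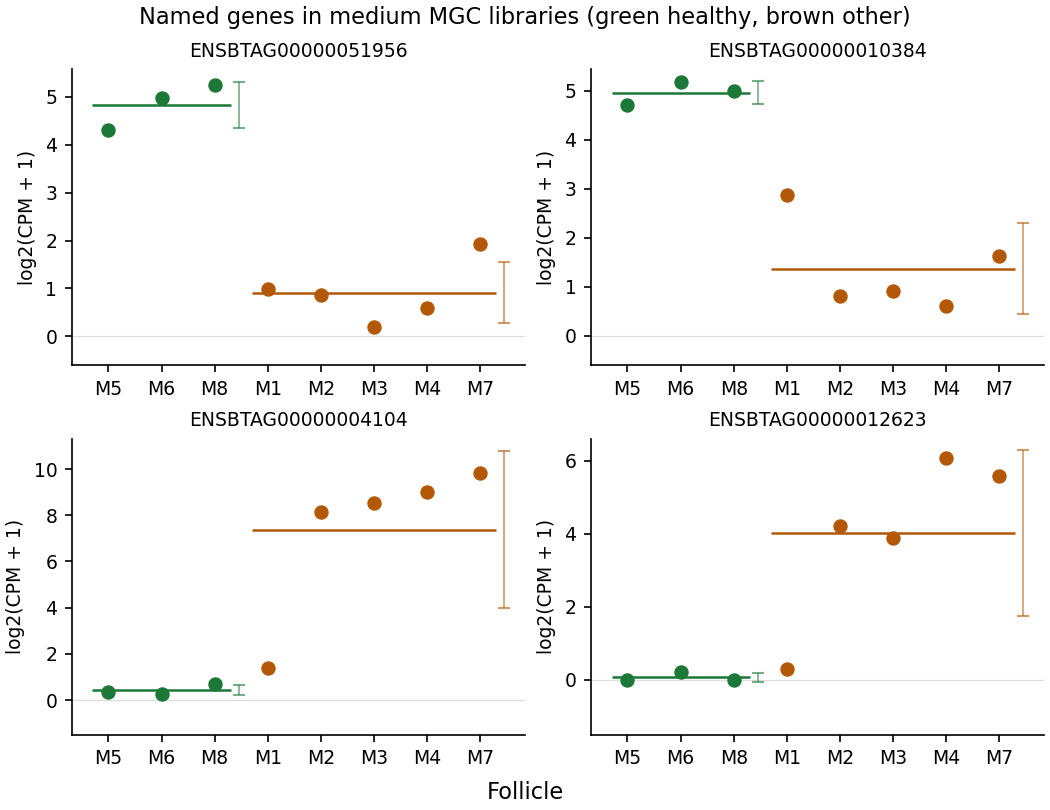
Level of the 4 named genes in MGCs, as log2(CPM + 1), in each healthy (green) and other (brown) medium follicle, with the group mean (line) and SD (bar, n = 3 and n = 5). M1 sits with its group at ENSBTAG00000051956 (0.984 CPM) and beside the healthy follicles at both genes of the lower row (1.65 and 0.232 CPM).

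The first principal component of the 8 libraries held 67.1% of the variance and separated the healthy follicles, together with M1, from the rest. Scores on it were 58.6 for M5, 83.9 for M6, 67.1 for M8 and 37.8 for M1, and -54.7, -73.0, -64.5 and -55.1 for M2, M3, M4 and M7. The second component held 12.7% and set M1 apart, with a score of -67.7 against -5.47 to 27.01 for the remaining 7. When the removed follicles were projected onto these axes, R1 scored -43.1 and R2 scored -27.0 on the first component, on the side of the other follicles. Of the follicles with shared first digits, R2 and M6 lay on opposite sides, whereas R1 and M7, like M5 and M8, lay on the same side.

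**Figure D3:**
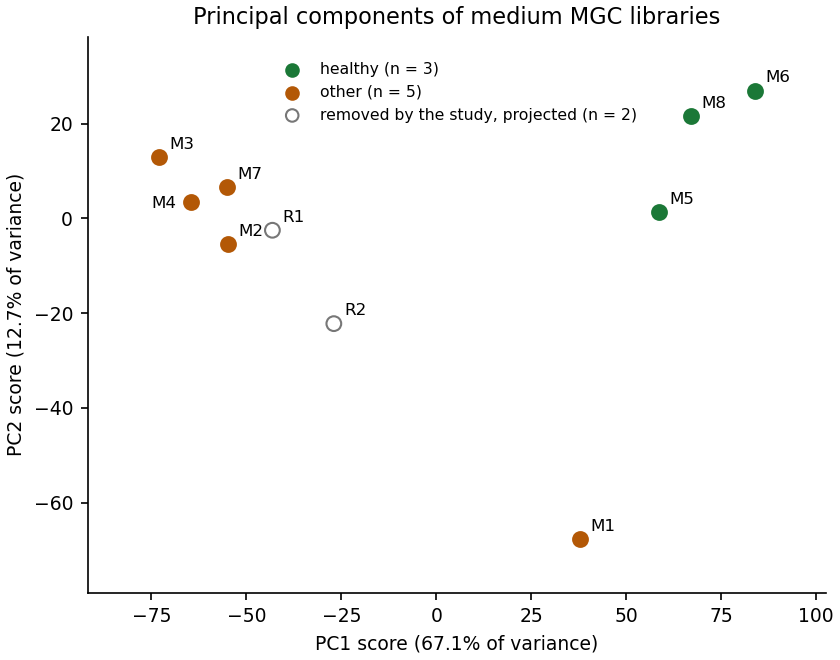
First and second principal component of the MGC libraries from 3 healthy (green) and 5 other (brown) medium follicles, with 2 removed follicles projected (open grey circles). M1 scored 37.8 on the first component, on the side of the healthy follicles (58.6 to 83.9), and lay farthest from 0 on the second (-67.7).

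The rank correlation between libraries, given here as a description over the 15134 genes that passed the filter on low counts, showed the same arrangement. Spearman's rho was 0.973 to 0.981 among the healthy follicles and 0.968 to 0.980 among M2, M3, M4 and M7, but 0.853 to 0.908 between those sets. M1 reached 0.934 to 0.956 with the healthy follicles and 0.886 to 0.915 with M2, M3, M4 and M7. Follicles M5 and M8, with shared first digits, had a rho of 0.977, and M6 and M8, with different digits, one of 0.981. M7 and the removed R1 (shared digits) had 0.984, and M6 and the removed R2 (shared digits) had 0.880. M1 also widened the spread within the other group. The median SD over genes on the log2 scale was 0.245 in healthy follicles and 0.355 in the others, and it was 0.263 in the others without M1.

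To place each follicle on genes that it had not helped to select, its position was read at the genes called in the fit that left it out, where 0 is the mean of the other follicles and 1 the mean of the healthy follicles in that fit. The median position was 0.718 for M5, 1.19 for M6 and 0.922 for M8, and 78.9%, 98.7% and 94.1% of the genes lay nearer to the healthy mean. M2, M3, M4 and M7 had medians of -0.064, -0.090, -0.090 and 0.013. M1 had a median of 0.647 (quartiles 0.307 and 0.962), and 62.2% of 4015 genes placed it nearer to the healthy mean. Its medians were 0.690 at genes called higher and 0.618 at genes called lower, so the position of M1 was not carried by 1 direction alone.

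The 2 removed follicles took no part in choosing the 2625 genes. At the 2597 of these at which the group means lay far enough apart to give a position, R1 had a median of 0.013, with 7.89% of genes nearer to the healthy mean. For R2 the median was 0.088, with 18.4% nearer to it, and its medians were -0.166 at genes called higher and 0.230 at genes called lower. Both therefore lay close to the other follicles. MGCs of small follicles had medians from -0.26 to 0.56, with 3 of 9 above the midpoint of 0.5, and those of large follicles from -0.19 to 0.89, with 3 of 10 above it. The directions differed, since 2 of the 9 small follicles were above the midpoint at genes called higher and 4 at genes called lower, and of the 10 large follicles 1 and 3 were.

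The number of genes called depended on which follicle was left out. Without M1, 1919 genes were higher and 2170 lower in healthy follicles, and 2561 of the 2625 genes called in all 8 libraries were among them. Without M6 the counts were 419 and 340, and without M8 they were 649 and 600. Without M2, M3, M4, M5 or M7, they ranged from 807 to 987 higher and from 1020 to 1212 lower. The surplus of lower genes was not kept in every fit, since the share of calls that were higher was 41.3% with all 8 libraries, 55.2% without M6 and 52.0% without M8. With follicle diameter as a covariate 327 genes were higher and 552 lower, and 784 of these 879 were also called without it. The fit without M5, in which no first digits occurred more than once, called 987 and 1206.

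**Figure D4:**
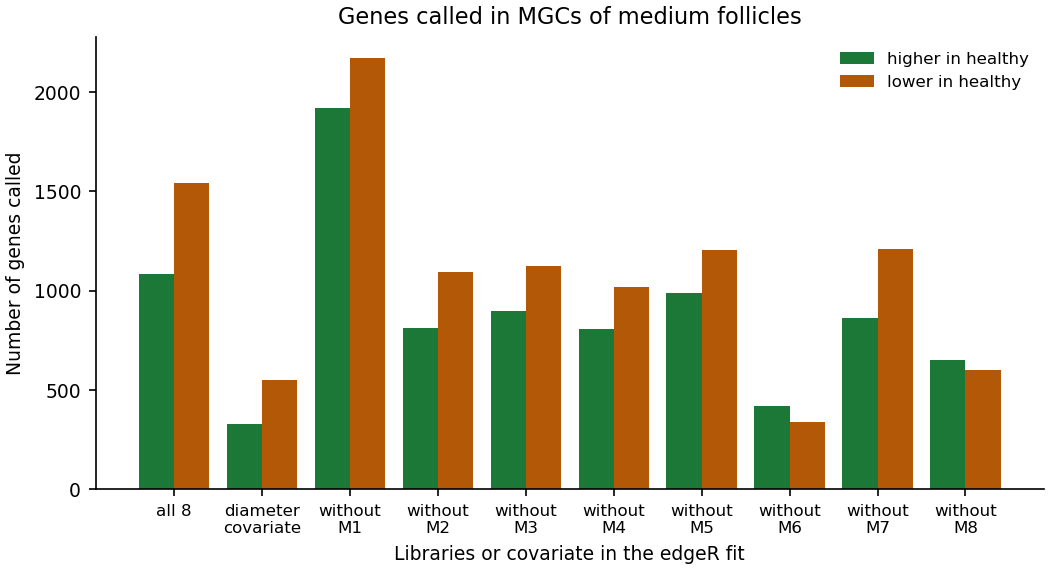
Number of genes called higher (green) and lower (brown) in MGCs of healthy follicles, with all 8 libraries, with follicle diameter as a covariate and without each follicle in turn. Counts run from 419 higher and 340 lower without M6 to 1919 higher and 2170 lower without M1.

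Levels in the other cell types gave a second view of the called genes. The difference between CCs and MGCs was read in the small and large follicles, whose libraries had no part in the comparison. Of the genes called higher in healthy MGCs, 837 of 1084 (77.2%) had a higher mean log2 level in CCs than in MGCs, against 5007 of 14751 genes tested (33.9%). Of the genes called lower, 107 of 1541 did so (6.94%). The median CC minus MGC difference on the log2(CPM + 1) scale was 0.82 for the genes called higher, -1.83 for those called lower and -0.44 over all genes tested. In the small and large follicles, genes called higher thus mostly had more signal in CCs than in MGCs, and genes called lower mostly had more in MGCs. At the called genes, only 3 of 9 of these small and 3 of 10 large MGC libraries had a median position above 0.5. The MGC level they gave was thus mostly nearer to the other mean than to the healthy mean. The part of the CC minus MGC difference that follows from this was not tested, here or for the lists below. CC and oocyte RNA was amplified before sequencing and MGC RNA was not, so cell type and library method cannot be told apart in the CC minus MGC difference.

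Genes with a strong preference went in the same directions. Over all genes tested, 7.35% were called higher and 10.4% lower. Of 58 genes with a mean CPM above 100 in CCs and a level more than 3 higher on the log2 scale in CCs than in MGCs, 27 (46.6%) were called higher in healthy MGCs and 0 lower, with a median log2 fold change of 1.58. Of 163 genes with the reverse preference, 0 were called higher and 67 (41.1%) lower, with a median of -1.02. The summed levels of both lists overlapped between the groups. The 58 genes summed to 4695 to 8328 CPM in healthy and 2172 to 4696 CPM in other MGCs, which was 3.38% to 12.0% and 3.00% to 7.06% of their level in the CCs of the same follicles, and the 163 genes to 66711 to 116783 CPM and 111053 to 126244 CPM. At a difference of more than 5, there were 9 genes preferring CCs, ENSBTAG00000051956 among them. Of these 9 genes, 2 (22.2%) were called higher and 0 lower, a smaller share called higher than among the 58. Their summed level in MGCs was 125 CPM in M5, 274 in M6 and 231 in M8. It was 45.4 in M1, 9.94 in M2, 10.7 in M3, 10.5 in M4 and 31.0 in M7, so the groups did not overlap for this stricter list. None of the 9 was at 0 in all 8 MGC libraries. In the CCs of the same follicles these 9 genes summed to 2515 to 8249 CPM, and the MGC level was 2.57% to 3.34% of the CC level in healthy and 0.195% to 0.808% in other follicles. At the same difference there were 40 genes preferring MGCs, of which 24 (60.0%) were called lower and 0 higher. They summed to 3816 to 8984 CPM in healthy and 16299 to 24441 CPM in other follicles, again without overlap for the stricter list.

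For genes preferring oocytes over MGCs the balance of the directions depended on the minimum difference. Of 778 tested genes with a mean CPM above 100 in oocytes and an oocyte level more than 3 higher on the log2 scale, 116 (14.9%) were called higher and 53 (6.81%) lower, against 7.35% and 10.4% over all genes, and their median log2 fold change was 0.29. Of 298 tested genes with an oocyte level more than 5 higher on the log2 scale, 26 (8.72%) were called higher and 25 (8.39%) lower. The summed level of the list at more than 5 in MGCs was 2264 to 3204 CPM in healthy and 1186 to 2776 CPM in other follicles, and the highest of the latter was M1. The part of signal from CCs or oocytes in the MGC result was not tested.

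Healthy and other follicles were then compared in their CCs and oocytes, which had not been used to set the class. In CCs, 2 of 14990 genes tested were called (0.0133%), both higher in healthy follicles, and 2048 (13.7%) passed the fold change at an unadjusted p under 0.05. The first had 3.14, 227 and 179 CPM in M5, M6 and M8 and 0.429 to 2.86 CPM in the others, and its log2 fold change was 6.91 (SE 0.96, adjusted p = 0.0213 in edgeR). It was also higher in MGCs, with a log2 fold change of 5.23 (adjusted p = 0.00809 in edgeR). The second had 256, 34.6 and 79.9 CPM in M5, M6 and M8 and 6.84 to 10.4 CPM in the others, and its log2 fold change was 3.83 (SE 0.51, adjusted p = 0.0213 in edgeR). In MGCs its log2 fold change was -0.93 (adjusted p = 0.0129 in edgeR), in the opposite direction and short of the required fold. The number of CC calls was unstable. DESeq2 gave 653 calls, and leaving out M6 gave 383, whereas leaving out M2 or M7 gave 0.

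In oocytes 0 of 14755 genes tested were called by edgeR. At an unadjusted p under 0.05 with the same fold change there were 252 (1.71%), and DESeq2 called 9. Ranges did not overlap at 410 genes (2.78%) in oocytes, with healthy follicles above at 251 (1.7%) and below at 159 (1.08%). In CCs they did not overlap at 1281 genes (8.55%), with healthy follicles above at 669 (4.46%) and below at 612 (4.08%).

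The genes called in MGCs had median differences near 0 in the other cells of the same follicles. In CCs the genes called higher in MGCs had a median log2 fold change of 0.12, and 56.8% of them were above 0, against a median of -0.04 and 48.4% over all genes in both fits. Of these genes 11.8% passed the fold upwards at an unadjusted p under 0.05 in CCs, against 7.86% over all genes. Of the 1530 genes called lower in MGCs that were tested in CCs, the median was -0.13, with 46.7% above 0, and 10.8% passed the fold downwards, against 5.92%. In oocytes the medians were 0.05 for genes called higher and 0.00096 for genes called lower, against -0.009 over all genes. Detection in the other cells also differed between the sets. A mean CPM above 1 in the CCs of the same follicles was found for 97.1% of the genes called higher and 65.8% of those called lower, against 82.0% of genes tested, and in their oocytes for 89.7% and 71.1%, against 85.1%.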

How the data were processed

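Per the labels, MGC RNA was extracted and sequenced as standard bulk libraries, whereas CC pools and single oocytes were lysed directly and amplified by SMART-seq2. The deposited values were raw counts per Ensembl gene (27270 genes, 90 columns), made by the authors with featureCounts over exons of ARS-UCD1.2. The methods and the processing notes name different aligners (STAR and HISAT2 2.2.1), and the files do not settle which was used. Between 60.3% and 66.6% of the values from 1 to 20 in the 8 libraries were even, so each read of a pair may have been counted and counting error may be understated.

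The healthy class came from the study and not from the labels. The filter asked for more than 1 CPM in 15 or more of the 27 libraries that the study retained for a cell type, in any of the cell types, and left 15134 genes, of which those with a count in the 8 libraries were tested. TMM normalization, glmQLFit and glmQLFTest in edgeR 4.0.16 (R 4.3.3) were used for each cell type, with Benjamini-Hochberg adjustment and no covariate. A call required a fold change above 2 and an adjusted p under 0.05. The SE given with an edgeR log2 fold change is its absolute value divided by the square root of the test's F statistic. It is thus derived from the test and is not an output of the fit. Scripts were tested on simulated data. DESeq2 1.42.0 gave an alternative, beside other size factors, other filters, a diameter covariate, unadjusted p and leaving out each follicle.

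Named genes were the 2 largest increases and 2 largest decreases among called genes whose mean log2 CPM reached 3 and whose groups did not overlap. The rule's symbols could not be used, as 0 of 27270 identifiers matched the reference table, and the symbol lists were not counted. The 2 genes called in CCs are given without identifiers. Positions used log2(CPM + 1) and genes whose group means differed by more than 0.5. The members and lists were chosen with earlier results of these data known, and positions, components, shares and cell type preferences were added after seeing the values.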

Additional observations from a re-analysis of the deposited data

Results flagged for a closer look

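Within the 5 other follicles, 11 measures of the MGC libraries were checked for a follicle whose gap to the next was large against the range of the group, and 6 were found. Chance gives about 1 in 20 groups, and the measures are not independent of each other. M7 had a diameter of 7.0 mm, against 6.2 to 6.4 mm in the remaining 4. M1 accounted for the other 5. Its level of ENSBTAG00000010384 was 6.37 CPM, against 0.530 to 2.07 CPM. Its median position between the group means was 0.647, against -0.090 to 0.013. The share of its counts in genes called higher was 6.85%, against 4.19% to 4.56%, and in genes called lower 5.54%, against 10.3% to 12.2%. Its score on the first principal component was 37.8, against -73.0 to -54.7. M1 was one of the 2 smallest follicles of the 8, and the 3 healthy follicles were all larger.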

How the results depend on the processing

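In MGCs, the numbers of genes called higher and lower (1084 and 1541) fell to 327 and 552 with diameter as a covariate. They ranged from 419 to 1919 and from 340 to 2170 when each follicle was left out. Both numbers changed over 1.5 times without M6 or M8. Without M1 only the number called higher (1919) did so, and without M4 only the number called lower (1020). In the fit with all 8 libraries, another test (DESeq2), other size factors and other filters stayed within 1.5 times, as did an unadjusted p. In CCs, the 2 calls became 653 with DESeq2, 8 with DESeq2 size factors, 0 with filterByExpr (1921 at an unadjusted p), 566 without a filter, 2048 at an unadjusted p and 0 to 383 without 1 follicle (77 without M1, 4 without M4 or M8). In oocytes, the 0 calls of edgeR became 9 with DESeq2, 252 at an unadjusted p and 0 to 1 without 1 follicle. The cause of these changes was not tested. The named genes kept their direction under every alternative run, and the adjusted p passed 0.05 only for ENSBTAG00000010384 with the covariate and for ENSBTAG00000012623 without M6 or M8. No paired analysis was possible because the groups hold different follicles and the labels carry no replicate numbers. Depth was 31855644 counts or more in each MGC library, and the number of follicles, 3 against 5, limits precision. The CC and oocyte libraries were less even in depth. In CCs, 6644 counts of ENSBTAG00000051956 made 564 CPM in M5, and 24462 counts made 929 CPM in M8. In oocytes, 1680 counts of ENSBTAG00000010384 made 199 CPM in M4, and 7335 counts made 243 CPM in M2. The effect of this on the calls was not tested.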
